A study of Mus musculus with 13 samples.

Results

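The genes described here are 10 transcription factors that establish or maintain the T-cell lineage: Tcf7, Lef1, Bcl11b, Gata3, Runx1, Myb, Ikzf1, Ikzf3, Ets1 and Sox4. They were taken by name from a table of read counts for 47937 genes, all 10 were found, and all 10 passed the filter on low counts in every comparison. RNA was sequenced from thymocytes of 6-week-old C57BL/6 mice of 2 genotypes, the controls WT;Lck-Cre+ (WT) and the conditional mutants Opa1fl/fl;Lck-Cre+ (Opa1fl/fl). Both genotypes carry the Lck-Cre transgene, which expresses Cre recombinase under the promoter of the T-cell kinase gene Lck, so that the controls differ from the Opa1fl/fl;Lck-Cre+ mice by the floxed alleles and not by Cre. Opa1 encodes a GTPase of the mitochondrial inner membrane that fuses mitochondria and shapes their cristae. Cells were sorted from the CD4- CD8- (double negative, DN) pool as DN3 (CD44low CD25high) and DN4 (CD44low CD25low), which lie before and after β-selection, the checkpoint at which a cell must have made a working T-cell receptor β chain. The 13 libraries came from 7 mice: 3 WT DN3, 4 WT DN4, 3 Opa1fl/fl DN3 and 3 Opa1fl/fl DN4 libraries. Libraries are named here by mouse; WT05, WT46, WT48, KO45, KO49 and KO51 gave both stages, and WT40 gave DN4 only.

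T-cell precursors are built up by a small set of DNA-binding proteins. Notch signals in the thymus switch on Tcf7 and Gata3, which open the T-cell programme. Bcl11b then commits the cells and closes the routes to other lineages. Runx1, Myb, Ets1 and the Ikaros proteins act on the enhancers of the T-cell receptor genes and of Cd4 and Cd8. β-selection ends much of the Notch signal, starts rapid division and leads towards the CD4+CD8+ double-positive (DP) stage through an immature single-positive (ISP) step.

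The libraries held between 5926848 and 14148661 counted reads, and the members had between 299 and 40502 reads in a library. Levels are read counts relative to library size (CPM) after scaling for library composition. The DN3 library of WT05 stood apart, with 35.4% of its counts on ribosomal-RNA-like genes against 0.395% to 1.58% in the other libraries. Stage labels were checked by Il2ra, which encodes CD25: it ran from 727 to 1337 CPM in the 6 DN3 libraries and from 9.78 to 24.1 CPM in the 7 DN4 libraries. Opa1 itself read 88.6 to 112 CPM in DN3 and 77 to 93.8 CPM in DN4 over both genotypes, with a log2 difference between genotypes of -0.12 (SE 0.133, adjusted p = 1) in DN3 and -0.08 (SE 0.0881, adjusted p = 0.945) in DN4. Those counts cover the whole gene, so they cannot show the loss of a floxed exon and give no check of the deletion. Xist was counted in all 3 Opa1fl/fl mice and 2 WT mice with both stages, whereas Y-linked genes were counted in WT40 and WT46, so sex was not balanced between the genotypes.

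Markers of other cells moved with stage. The study's flow cytometry took DN subsets from lineage-negative cells, and whether the sort for RNA used that gate is not given in the sources used here. The summed level of 8 B-cell genes (Cd79a, Cd79b, Ms4a1, Cd22, Pax5, Ebf1, Ighm, Igkc) was 284 to 425 CPM in DN3 libraries. In DN4 it was 3127, 1126, 1289 and 5763 CPM in WT05, WT40, WT46 and WT48, and 2311, 3654 and 936 CPM in KO45, KO49 and KO51. All 8 had reads in every group, and Cd79a lay between 0.412 and 5.04 CPM in DN3 and between 52.2 and 731 CPM in DN4. Most of the DN3 sum came from Ighm, at 262 to 372 CPM in DN3 and 655 to 2033 CPM in DN4. Ms4a1 read 0.196 to 1.21 CPM in DN3 and 27 to 423 CPM in DN4, so the sum rose less than these 2 B-cell genes, Cd79a and Ms4a1. The 5 ISP and DP genes (Cd4, Cd8a, Cd8b1, Cd2, Trac) summed to 44.8 to 68.7 CPM in WT DN3 and to 81.2 to 118 CPM in Opa1fl/fl DN3, without overlap between the genotypes. In DN4 they summed to 769, 1957, 1345 and 378 CPM in WT05, WT40, WT46 and WT48, and to 2884, 891 and 1148 CPM in KO45, KO49 and KO51. The 5 plasmacytoid dendritic-cell genes (Siglech, Bst2, Tcf4, Irf8, Ccr9) summed to 258 to 463 CPM in DN3 and 523 to 983 CPM in DN4, and Siglech had no reads in DN3. The 7 NK and innate lymphoid genes summed to 228 to 250 CPM in WT DN3 and 302 to 406 CPM in WT DN4, and overlapped between stages in Opa1fl/fl cells (236 to 298 and 204 to 302 CPM). Stromal genes summed to 112 to 246 CPM over all libraries, myeloid genes to at most 66.6 CPM and erythroid genes to at most 6.29 CPM. The libraries are bulk RNA, so a change in the share of cells of a type and a change in RNA per cell cannot be told apart.

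Runx1 and Myb were the members that were lower in every DN4 library than in any DN3 library of the same genotype for both genotypes, and their promoter sequences are shown for that reason. The RefSeq table (GRCm38.p6, the assembly of mm10) held promoter windows for 8 of the 10 members, and none for Ikzf3 and Ets1. The bases given lie before the annotated start, on the minus strand, and leave out bases that GENCODE M21 places in an exon. For the distal Runx1 promoter they end where the GENCODE gene begins, 75 bases before the RefSeq start. Capitals mark matches, on either strand, to 6 short motifs: TGTGGT for RUNX factors, CTTTGA for TCF and LEF factors, AGATAA for GATA factors, CCGGAA for ETS factors, the E-box CANCTG, and TGGGAA for Ikaros and RBPJ. No marked matches overlapped.
Runx1 distal promoter, chr16:92826150-92826324, minus strand: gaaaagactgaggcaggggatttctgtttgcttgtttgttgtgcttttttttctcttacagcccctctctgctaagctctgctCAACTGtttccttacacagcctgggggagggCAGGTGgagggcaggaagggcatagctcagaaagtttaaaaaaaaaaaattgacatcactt
Runx1 proximal promoter, chr16:92697330-92697579, minus strand: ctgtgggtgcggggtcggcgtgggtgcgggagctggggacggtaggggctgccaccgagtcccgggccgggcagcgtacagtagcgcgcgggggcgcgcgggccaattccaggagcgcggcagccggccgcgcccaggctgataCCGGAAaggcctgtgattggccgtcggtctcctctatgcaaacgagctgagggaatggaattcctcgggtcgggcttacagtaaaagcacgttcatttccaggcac
Myb promoter, chr10:21160985-21161234, minus strand: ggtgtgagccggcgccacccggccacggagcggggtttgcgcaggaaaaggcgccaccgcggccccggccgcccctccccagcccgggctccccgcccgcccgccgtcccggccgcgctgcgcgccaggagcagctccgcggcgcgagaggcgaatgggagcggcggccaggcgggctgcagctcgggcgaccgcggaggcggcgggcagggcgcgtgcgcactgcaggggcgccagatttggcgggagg

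The 175 bases of the distal Runx1 promoter held 2 E-boxes, and 34.3% of the 32851 promoter windows held at least 1 in the same stretch. The proximal Runx1 window held 1 ETS match, present in 12.0% of all windows of that length. The Myb window held none of the 6 motifs, as did 25.5% of all windows. A match is a description of the letters and not evidence of binding, and the gene-level counts do not tell the 2 Runx1 promoters apart.

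In GENCODE M21 (GRCm38) the members are protein-coding genes, and reads were counted over their exons. Tcf7 lies at chr11:52252371-52283014 (minus strand), Lef1 at chr3:131110471-131224356 (plus), Bcl11b at chr12:107910403-108003602 (minus), Gata3 at chr2:9857078-9890034 (minus) and Runx1 at chr16:92601466-92826149 (minus). Myb lies at chr10:21124935-21160984 (minus), Ikzf1 at chr11:11685003-11772926 (plus), Ikzf3 at chr11:98464902-98546031 (minus), Ets1 at chr9:32636221-32757820 (plus) and Sox4 at chr13:28948919-28953713 (minus). Sox4 is annotated with 1 exon and Myb with 15 exon blocks.

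Between genes, levels were compared per kilobase of exon (CPM per kb). Tcf7, which encodes the HMG-box factor TCF1, was the highest member in all 13 libraries, at 839 ± 24.4 CPM per kb (SD, n = 3) in WT DN3 and 915 ± 185 (SD, n = 4) in WT DN4. In WT DN3 the next were Ets1 (86.7 ± 10.4), Ikzf1 (86.1 ± 15.2), Myb (80.5 ± 8.2) and Bcl11b (72.4 ± 22.6 CPM per kb; SD, n = 3 each), and each of these neighbours overlapped the next. Sox4 (49.5 ± 4.82) lay below Bcl11b, and Lef1 (29.3 ± 8.47) below Sox4, without overlap. Lef1, Gata3 (26.5 ± 2.11) and Runx1 (24.1 ± 7.28 CPM per kb) each overlapped the next, and Ikzf3 was lowest at 6.67 ± 2.97 CPM per kb, below Runx1 without overlap. In WT DN4 the low end was held by Runx1 at 8.9 ± 0.518 CPM per kb (SD, n = 4), below Gata3 in every library, while Ikzf3 at 38.2 ± 7.3 CPM per kb was seventh and overlapped Myb and Lef1. The order in Opa1fl/fl cells placed Tcf7 first and Ikzf3 last in DN3, and Tcf7 first and Runx1 last in DN4, as in WT cells.

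**Figure D1:**
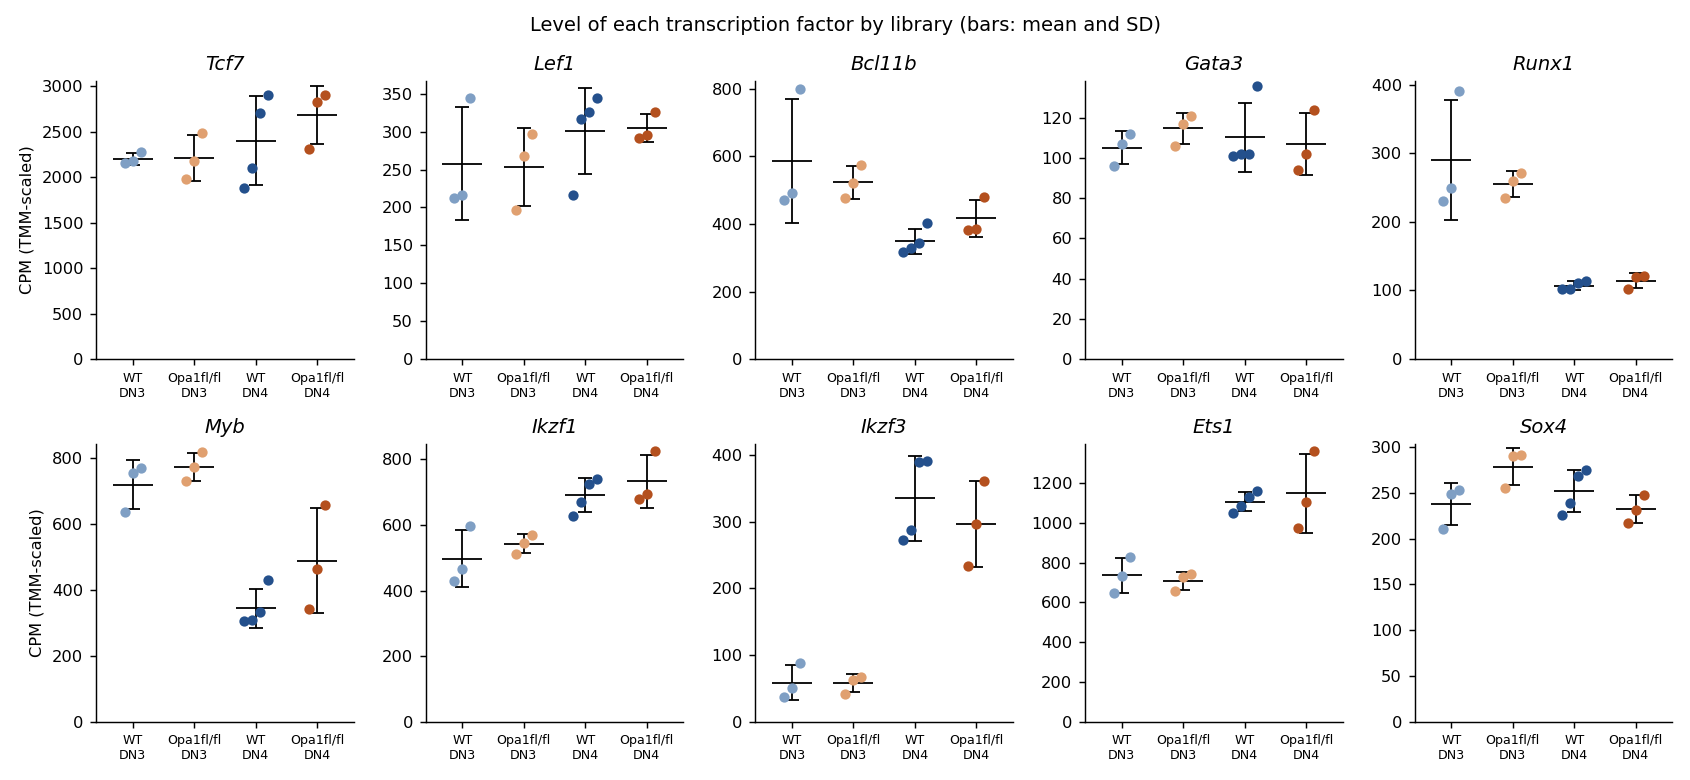
Level of each of the 10 factors in CPM (linear axes from 0), one point per library, in WT and Opa1fl/fl DN3 and DN4 thymocytes, with the mean and SD as black bars. Runx1 ran from 230 to 391 CPM in DN3 and from 102 to 121 CPM in DN4, while Tcf7 and Gata3 overlapped between the stages in each genotype.

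The first comparison asked how the factors differed between the 2 stages in control mice. In WT;Lck-Cre+ thymocytes, Ikzf3 and Ets1 rose and Runx1, Myb and Bcl11b fell from DN3 to DN4. These were 5 of the 10 members at an adjusted p under 0.05 (edgeR quasi-likelihood test, Benjamini-Hochberg over all genes tested), and 22.9% of all genes tested passed the same threshold. By direction, 2 members were higher against 13.4% of all genes, and 3 were lower against 9.43%. The DN3 and DN4 libraries did not overlap for 6 members against 35.0% of all genes. The median log2 difference over the members was 0.08 and over all genes -0.03. With library totals in place of composition scaling, Myb (adjusted p = 0.0651), Bcl11b (0.189) and Ets1 (0.0789) did not pass, and Ikzf3 and Runx1 did. In Opa1fl/fl;Lck-Cre+ thymocytes, Ikzf3, Ets1 and Ikzf1 rose and Runx1 fell, 4 of 10 members against 18.6% of all genes tested. Of these, 3 were higher (11.2% of all genes) and 1 was lower (7.34%), and the groups did not overlap for 6 members against 38.7% of all genes. The median log2 difference over the members was 0.06 and over all genes -0.02.

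**Figure D2:**
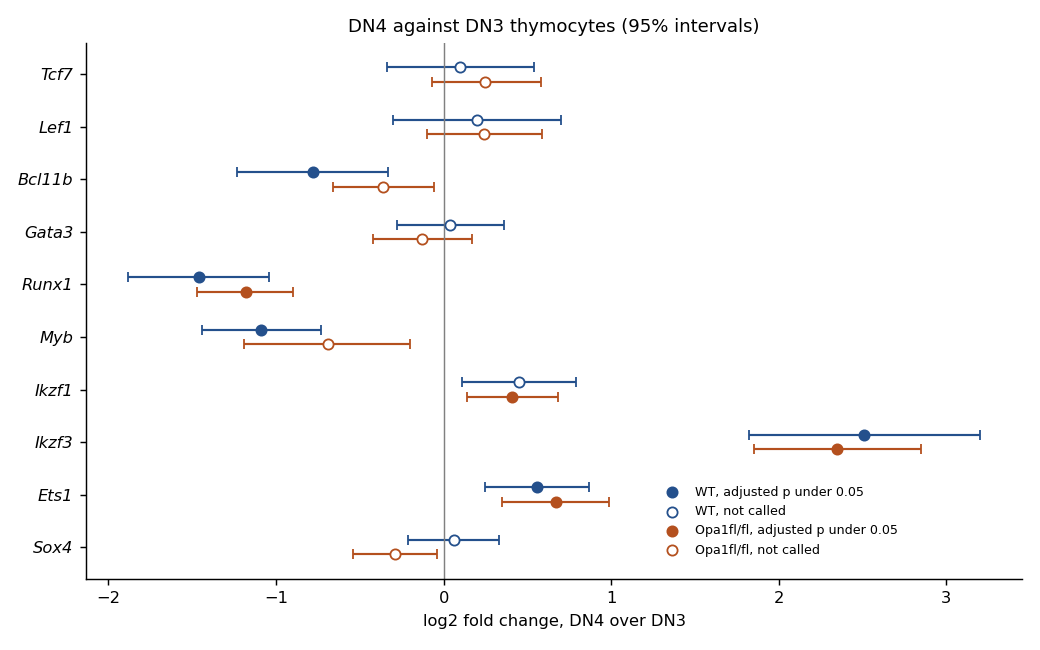
Log2 fold change of DN4 over DN3 for each factor with 95% intervals, in WT (blue) and Opa1fl/fl (orange) thymocytes; filled points have an adjusted p under 0.05. Ikzf3 lies farthest to the right (2.51 and 2.35) and Runx1 farthest to the left (-1.46 and -1.18) in both genotypes.

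Ikzf3 and Ikzf1 encode the Ikaros-family zinc-finger proteins Aiolos and Ikaros, which bind the same DNA motif and dimerise with each other. Ikzf3 in DN3 read 87.5, 50.3 and 37.4 CPM in WT05, WT46 and WT48, and 42.1, 67.3 and 63.1 CPM in KO45, KO49 and KO51. In DN4 it read 391, 273, 287 and 389 CPM in WT05, WT40, WT46 and WT48, and 296, 361 and 233 CPM in KO45, KO49 and KO51. Every DN4 library was above every DN3 library, with no overlap in either genotype. The difference was 5.7-fold in WT (log2 2.51, SE 0.303, adjusted p = 9.2e-04, edgeR) and 5.1-fold in Opa1fl/fl cells (log2 2.35, SE 0.216, adjusted p = 5.7e-04, edgeR). Within a mouse it was higher in DN4 in 6 of 6, by 1.89 to 3.38 on the log2 scale.

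Aiolos is also abundant in B cells, and in DN4 libraries Ikzf3 stood high where the B-cell genes stood high. The 3 DN4 libraries with the highest B-cell sums (WT05, KO49 and WT48) were those with 391, 361 and 389 CPM of Ikzf3. KO51, with the lowest B-cell sum at 936 CPM, had the lowest DN4 level of Ikzf3 at 233 CPM. Its B-cell sum and its Ikzf3 level were both above those of every DN3 library (at most 425 and 87.5 CPM), and the part of B cells in the rise of Ikzf3 was not tested. With the log2 level of B-cell genes as a covariate, the stage difference of Ikzf3 was 2.05 (SE 0.554, adjusted p = 0.0821) in WT and 1.53 (SE 0.383, adjusted p = 0.275) in Opa1fl/fl cells. In that fit none of the 10 members passed in either genotype, and 5.44% and 0% of all genes did. The standard errors were larger than without the covariate, and the difference of Runx1 was -1.49 (SE 0.406, adjusted p = 0.0843) in WT and -1.12 (SE 0.334, adjusted p = 0.39) in Opa1fl/fl cells, beside -1.46 and -1.18 without it. Ets1 was 0.58 (SE 0.271, adjusted p = 0.328) in WT and 0.32 (SE 0.353) in Opa1fl/fl cells, beside 0.56 and 0.67. The covariate took no value common to both stages. At an unadjusted p under 0.05, 2201 and 861 genes passed it. With the level of ISP and DP genes as the covariate, Ikzf3 and Myb passed in WT cells, against 9.83% of all genes, and no member or other gene in Opa1fl/fl cells (612 genes had an unadjusted p under 0.05).

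**Figure D3:**
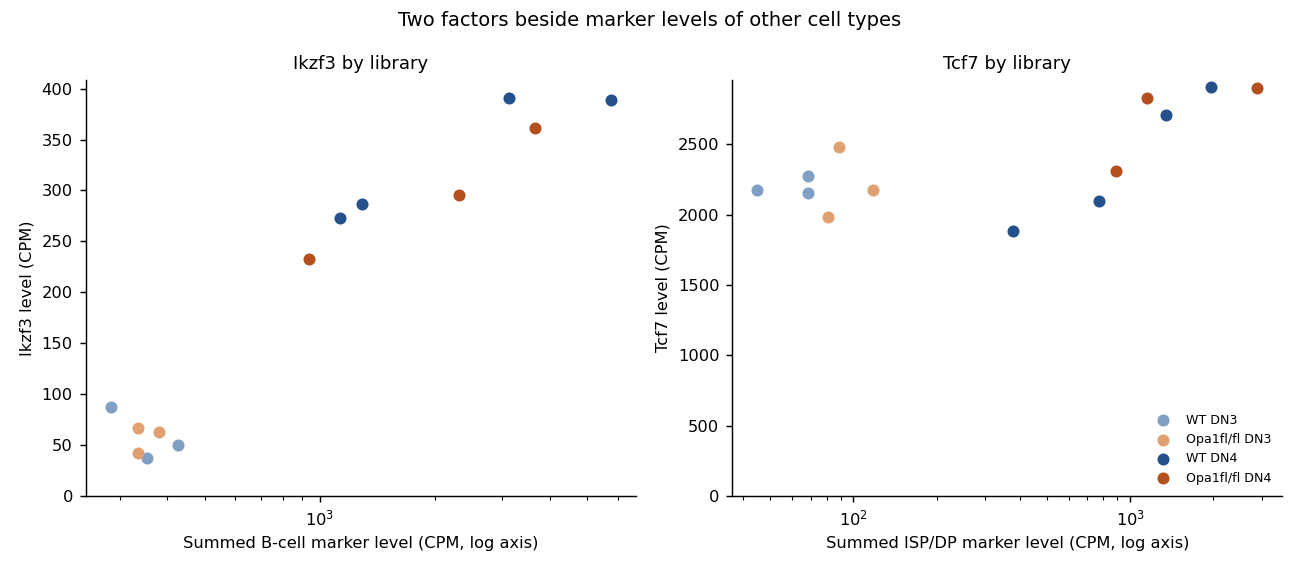
Left, Ikzf3 level (CPM) against the summed level of 8 B-cell genes, and right, Tcf7 level against the summed level of 5 ISP and DP genes (CPM, log x axes), one point per library and one colour per group. In DN4 libraries both factors stand higher where the markers on their x axis stand higher, with Ikzf3 from 233 to 391 CPM and Tcf7 from 1886 to 2909 CPM.

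Ikzf1 moved less. It read 596, 430 and 465 CPM in WT05, WT46 and WT48 DN3, and 740, 725, 669 and 628 CPM in WT05, WT40, WT46 and WT48 DN4. In KO45, KO49 and KO51 it read 545, 571 and 512 CPM in DN3 and 827, 696 and 678 CPM in DN4. The stages did not overlap in either genotype. The log2 difference of 0.45 in WT (SE 0.148, adjusted p = 0.061) did not pass, and that of 0.41 in Opa1fl/fl cells (SE 0.118, adjusted p = 0.0461) did (edgeR). The WT difference passed with DESeq2 (adjusted p = 0.00615), with limma-voom (0.0432) and with all 13 libraries in one edgeR fit (0.0174), and the Opa1fl/fl difference did not pass with library totals (0.056) or with at least 10 counts required in every library (0.0588). The call in Opa1fl/fl cells was lost when any 1 of its 6 libraries was left out (adjusted p = 0.0571 to 0.2), and in WT the difference was 0.59 and passed (adjusted p = 0.00838) without the DN3 library of WT05.

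The ratio of the 2 genes within a library does not depend on scaling between libraries. Ikzf3 over Ikzf1, per kb, was 0.0757 ± 0.0219 (SD, n = 3) in WT DN3 and 0.322 ± 0.0712 (SD, n = 4) in WT DN4. In Opa1fl/fl cells it was 0.0701 ± 0.0165 in DN3 and 0.268 ± 0.0641 in DN4 (SD, n = 3 each). Within a mouse the log2 ratio rose by 2.08 on average (SD 0.49, range 1.48 to 2.94) in 6 of 6 mice, with p = 0.0312 in an exact two-sided sign-flip permutation test, the smallest p that 6 mice allow. The highest DN4 ratios, 0.408, 0.349 and 0.342, belonged to WT48, WT05 and KO49, the libraries with the highest B-cell sums. The lowest, 0.227 in KO51, was above every DN3 ratio (0.0511 to 0.0968), and the part of B cells in the ratio was not tested.

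**Figure D4:**
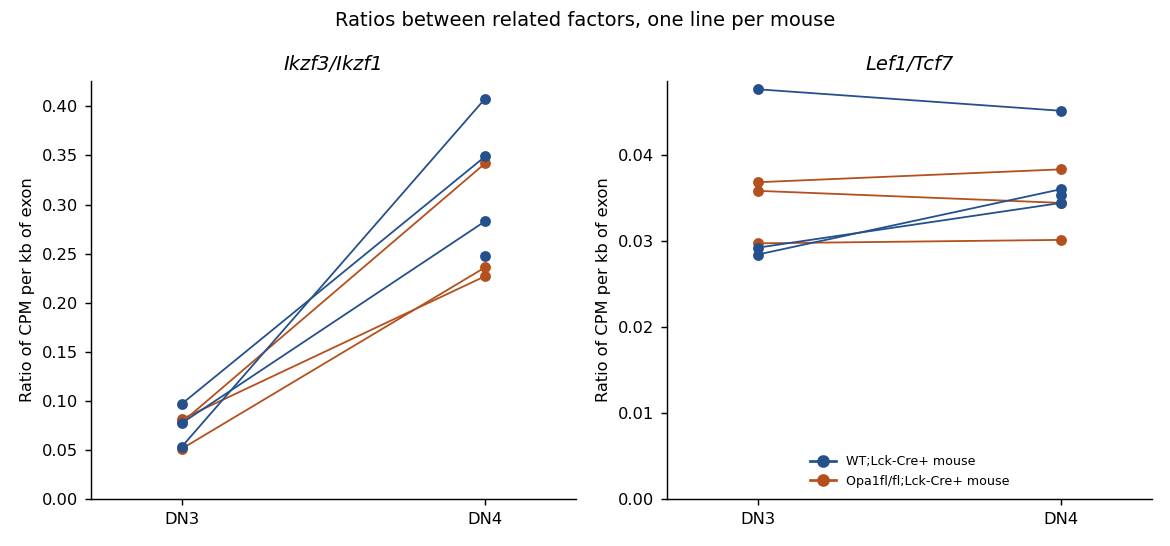
Ratio of Ikzf3 to Ikzf1 (left) and of Lef1 to Tcf7 (right), each as CPM per kb of exon, in DN3 and DN4, with one line per mouse (blue WT, orange Opa1fl/fl) and the unpaired DN4 library of WT40 as a single point. All 6 lines rise on the left, and on the right 4 rise and 2 fall.

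Runx1 encodes the Runt-domain factor that silences Cd4 in double-negative thymocytes. It read 391, 230 and 250 CPM in WT05, WT46 and WT48 DN3, and 111, 102, 102 and 114 CPM in WT05, WT40, WT46 and WT48 DN4. In KO45, KO49 and KO51 it fell from 271, 260 and 235 CPM in DN3 to 102, 121 and 120 CPM in DN4. No DN3 library overlapped a DN4 library, and all 6 mice were lower in DN4. The fall was 2.75-fold in WT (log2 -1.46, SE 0.182, adjusted p = 0.00107) and 2.27-fold in Opa1fl/fl cells (log2 -1.18, SE 0.123, adjusted p = 9.7e-04; edgeR). The highest DN3 value belonged to the ribosomal-RNA-rich library of WT05, and without it the WT log2 difference was -1.20 (SE 0.086, adjusted p = 2.3e-04). In DN4 libraries Runx1 stood lower where the ISP and DP genes stood higher, at 114 CPM beside a sum of 378 in WT48 and 102 CPM beside 1957 in WT40, and at 121 CPM beside 891 in KO49 and 102 CPM beside 2884 in KO45. With the level of ISP and DP genes as a covariate, the stage difference was -1.31 (SE 0.564, adjusted p = 0.217) in WT and -0.56 (SE 0.42, adjusted p = 0.967) in Opa1fl/fl cells (edgeR), and the part of those cells in the fall was not tested. In that fit 9.83% of all genes passed in WT and 0% in Opa1fl/fl cells, and the sums took no value common to both stages.

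Myb encodes a factor needed for survival of cells passing from DN to DP. It read 635, 768 and 754 CPM in WT05, WT46 and WT48 DN3, and 308, 431, 333 and 304 CPM in WT05, WT40, WT46 and WT48 DN4. In KO45, KO49 and KO51 it read 816, 772 and 731 CPM in DN3 and 658, 343 and 463 CPM in DN4. All DN4 libraries were below the DN3 libraries of their genotype, and KO45 kept the highest DN4 level. The fall was 2.13-fold in WT (log2 -1.09, SE 0.155, adjusted p = 0.00193, edgeR). In Opa1fl/fl cells the log2 difference was -0.69 (SE 0.216, adjusted p = 0.0606, edgeR), and without the DN4 library of KO45 it was -0.99 (SE 0.156, adjusted p = 0.00771). It passed with DESeq2 (adjusted p = 0.0171), with no filter beyond 1 count (0.013) and with all 13 libraries in one edgeR fit (0.0378), and with the level of ISP and DP genes as a covariate it was -2.43 (SE 0.538, adjusted p = 0.729), a fit in which 0% of all genes passed. The DN4 library of KO45 also had the highest ISP and DP sum, 2884 CPM, and the highest DN4 level of Il2ra, 24.1 CPM. The summed level of 8 DN3 genes (Il2ra, Ptcra, Dtx1, Notch3, Hes1, Cd3e, Thy1, Rag1) was also highest among DN4 libraries in KO45, at 3417 CPM, and lowest in WT48, at 1615 CPM, which had the lowest Myb level. These genes are not all confined to DN3: Cd3e read 300 to 378 CPM in DN3 and 253 to 375 CPM in DN4. Il2ra, at 24.1 CPM in KO45 DN4, read 820 to 1337 CPM in Opa1fl/fl DN3, so the sum does not measure DN3 cells alone. The part of ISP, DP or DN3 cells in the Myb level was not tested.

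Bcl11b, the zinc-finger factor of T-cell commitment, read 799, 472 and 492 CPM in WT05, WT46 and WT48 DN3, and 317, 402, 344 and 330 CPM in WT05, WT40, WT46 and WT48 DN4. It fell 1.72-fold in WT (log2 -0.78, SE 0.199, adjusted p = 0.0235, edgeR), with no overlap between stages, and without the DN3 library of WT05, the highest, the log2 difference was -0.50 (adjusted p = 0.0211). In KO45, KO49 and KO51 it read 522, 574 and 476 CPM in DN3 and 481, 386 and 383 CPM in DN4, with overlap, and the log2 difference of -0.36 (SE 0.131, adjusted p = 0.0987) did not pass. Within a mouse Bcl11b was lower in DN4 in 6 of 6, by 0.12 to 1.33 on the log2 scale. The WT call was lost without the DN4 library of WT05 (adjusted p = 0.0767), WT46 (0.0556) or WT48 (0.0524), and without the DN4 library of KO45 the Opa1fl/fl difference was -0.50 and passed (adjusted p = 0.0355). With the level of B-cell genes as a covariate the difference was -0.37 (SE 0.391) in WT and -0.42 (SE 0.364) in Opa1fl/fl cells. With that of ISP and DP genes it was -1.33 (SE 0.571) and -1.13 (SE 0.405), and none of these 4 values passed (edgeR). Neither covariate took a value common to both stages.

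Ets1 encodes the founding member of the ETS family and acts at the T-cell receptor enhancers. It read 826, 731 and 649 CPM in WT05, WT46 and WT48 DN3, and 1158, 1127, 1051 and 1084 CPM in WT05, WT40, WT46 and WT48 DN4. In KO45, KO49 and KO51 it read 655, 729 and 740 CPM in DN3 and 1361, 1106 and 974 CPM in DN4. The stages did not overlap in either genotype. The rise was 1.48-fold in WT (log2 0.56, SE 0.135, adjusted p = 0.0187) and 1.59-fold in Opa1fl/fl cells (log2 0.67, SE 0.14, adjusted p = 0.0136; edgeR). The WT call was lost without the DN3 library of WT46 (adjusted p = 0.0686) or WT48 (0.0808) or the DN4 library of WT05 (0.0584) or WT40 (0.0545), and the Opa1fl/fl call without the DN3 library of KO49 (0.0663) or KO51 (0.0637). KO45 DN4, with the highest ISP and DP sum, had the highest Ets1 and Ikzf1 levels. The WT DN4 libraries did not run this way. Their highest Ets1 (1158 CPM) and Ikzf1 (740 CPM) levels were in WT05, whose ISP and DP sum of 769 CPM was below those of WT40 (1957 CPM) and WT46 (1345 CPM). The part of those cells was not tested. With the level of ISP and DP genes as a covariate, the Opa1fl/fl differences were -0.12 for Ets1 (SE 0.426, adjusted p = 0.987) and -0.16 for Ikzf1 (SE 0.386, adjusted p = 0.987), and that of Ets1 in WT was 0.44 (SE 0.405, adjusted p = 0.576; edgeR). In that fit 0% of all genes passed in Opa1fl/fl cells and 9.83% in WT. The ISP and DP sums took no value common to both stages, so the fit cannot separate them from stage.

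Tcf7, Gata3 and Sox4 did not pass by stage in either genotype. Tcf7 read 2157 to 2276 CPM in WT DN3 and 1886 to 2909 CPM in WT DN4, with a log2 difference of 0.10 (95% interval -0.34 to 0.54, adjusted p = 0.762, edgeR). In Opa1fl/fl cells it read 1985 to 2482 CPM in DN3 and 2314 to 2900 CPM in DN4, with a log2 difference of 0.25 (-0.07 to 0.58, adjusted p = 0.25, edgeR). The 7 DN4 libraries ran with ISP and DP genes: Tcf7 was lowest in WT48 (1886 CPM beside a sum of 378) and was 2909 and 2900 CPM in WT40 and KO45 (sums of 1957 and 2884), and the part of those cells in the Tcf7 level was not tested. Gata3, a zinc-finger factor needed for the earliest precursors and again for CD4 cells, read 96 to 112 CPM in WT DN3, 101 to 136 CPM in WT DN4, 106 to 121 CPM in Opa1fl/fl DN3 and 94.2 to 124 CPM in Opa1fl/fl DN4. Its log2 differences were 0.04 (-0.28 to 0.36) in WT and -0.13 (-0.42 to 0.17) in Opa1fl/fl cells. Sox4, an HMG-box factor of the SOX family, read 211 to 253 CPM in WT DN3 and 226 to 275 CPM in WT DN4, a log2 difference of 0.06 (-0.21 to 0.33). In KO45, KO49 and KO51 it read 290, 291 and 255 CPM in DN3 and 248, 217 and 231 CPM in DN4, a log2 difference of -0.29 (SE 0.11, adjusted p = 0.11, edgeR). An annotated transcript on the opposite strand, Gm26735, covers 54.6% of the Sox4 exon bases and had 10 to 59 reads in a library, at most 2.38% of those of Sox4, and whether reads were assigned by strand is not known.

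Lef1 encodes the close relative of TCF1 that binds the same motif. It read 344, 216 and 213 CPM in WT05, WT46 and WT48 DN3 and 217 to 344 CPM in WT DN4. In Opa1fl/fl cells it read 197 to 297 CPM in DN3 and 292 to 326 CPM in DN4. The log2 differences were 0.20 (95% interval -0.30 to 0.70, adjusted p = 0.558) and 0.24 (-0.10 to 0.59, adjusted p = 0.301; edgeR). The first was 0.46 (adjusted p = 0.115) without the DN3 library of WT05 and 0.08 (0.85) without that of WT48, and the second was 0.10 (adjusted p = 0.59) without the DN3 library of KO45. Lef1 over Tcf7 per kb was 0.0351 ± 0.0108 in WT DN3 (SD, n = 3), 0.0377 ± 0.00498 in WT DN4 (SD, n = 4), 0.0341 ± 0.00385 in Opa1fl/fl DN3 and 0.0342 ± 0.00411 in Opa1fl/fl DN4 (SD, n = 3 each). Within a mouse the log2 ratio differed by 0.09 (SD 0.17, n = 6), with p = 0.344 in the exact two-sided sign-flip permutation test. Over the 13 libraries and 13361 genes, the log2 levels most like those of Tcf7 were of Ccdc153 (Pearson r 0.95), Scmh1 (0.892) and Endou (0.885), and those most like Lef1 were of Esco2 (0.946), Zw10 (0.943) and Igsf3 (0.941). Tcf7 and Lef1 had an r of 0.628. The opposite-strand transcript Gm43352 covers 13.7% of the Lef1 exon bases and had at most 8.43% of its reads. The correlations are descriptions over libraries that share mice and scaling, and Ccdc153 had only 5 to 69 reads in a library.

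Because each DN3 library shares its mouse with a DN4 library, the stages were also compared within mice, with the mouse as a block. In Opa1fl/fl cells 7 members then passed against 35.8% of all genes: Myb (log2 -0.74, adjusted p = 0.00274), Bcl11b (-0.36, adjusted p = 0.0158) and Sox4 (-0.29, adjusted p = 0.0262) joined the 4 (edgeR). In WT cells, where WT40 has no partner and was dropped, 4 members passed against 18.7% of all genes, and Ets1 did not (log2 0.56, adjusted p = 0.101).

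The second question was whether Opa1 deletion changed the factors. None of the 10 passed between Opa1fl/fl;Lck-Cre+ and WT;Lck-Cre+ mice in either stage. In DN3, 0% of all genes tested passed (168 had an unadjusted p under 0.05, 0 of them members), the members' log2 differences lay between -0.19 and 0.22, and their median was -0.01, equal to that of all genes. Without the ribosomal-RNA-rich DN3 library of WT05 no member passed and the differences lay between -0.01 (Tcf7) and 0.38 (Ikzf3), with Bcl11b at 0.12 (from -0.17), Runx1 at 0.09 (from -0.19), Lef1 at 0.24 (from -0.03) and Ikzf1 at 0.28 (from 0.12). DESeq2 called 1 gene there and 0 members. Sox4 was higher in all 3 Opa1fl/fl DN3 libraries (255 to 291 CPM) than in the WT libraries (211 to 253 CPM), 1 member without overlap against 6.44% of all genes, with a log2 difference of 0.22 (SE 0.136, adjusted p = 1, edgeR). In DN4, 0.0535% of all genes passed (715 of 13084 had an unadjusted p under 0.05, 1 of them a member), and the log2 differences of the members lay between -0.14 and 0.54 with a median of 0.11 beside 0.00 over all genes. The groups overlapped for all 10 members, against 7.08% of all genes without overlap.

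The 95% intervals give what these libraries allow. For Tcf7 the log2 difference of Opa1fl/fl over WT was -0.00 (-0.42 to 0.42) in DN3 and 0.19 (-0.23 to 0.62) in DN4. For Ikzf3, whose interval was the widest in DN3, it was -0.01 (-0.72 to 0.70) in DN3 and -0.14 (-0.55 to 0.27) in DN4. Its DN3 value was 0.38 (SE 0.216) without the library of WT05 and -0.25 (SE 0.285) without that of WT48. Adding the level of ISP and DP genes as a covariate moved the DN3 value to -0.81 (SE 0.386), below its DN3 interval. Bcl11b in DN3 then went from -0.17 to -0.50 and Lef1 from -0.03 to -0.41, while Myb and Sox4 rose, to 0.18 and 0.28. None of these passed. The ISP and DP sums in DN3 did not overlap between the genotypes, so that fit cannot separate them from genotype. For Runx1 in DN4 the difference of Opa1fl/fl over WT was 0.13 (-0.08 to 0.34), the narrowest interval. Myb in DN4 had the largest value, 0.54 (0.01 to 1.08, unadjusted p = 0.0464, adjusted p = 0.883, edgeR). It was 0.32 (SE 0.164) with the level of ISP and DP genes as a covariate and 0.52 (SE 0.197) with that of B-cell genes. Without the DN4 library of KO45 it was 0.25 (adjusted p = 0.834, edgeR). Bcl11b in DN4 was 0.29 (-0.01 to 0.60, adjusted p = 0.883), and 0.16 without that library. With 1 DN4 library left out, the DN4 value of Tcf7 ran from 0.07 (without WT48) to 0.30 (without KO49), and that of Ikzf3 from -0.28 (without KO49) to 0.02 (without KO51).

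**Figure D5:**
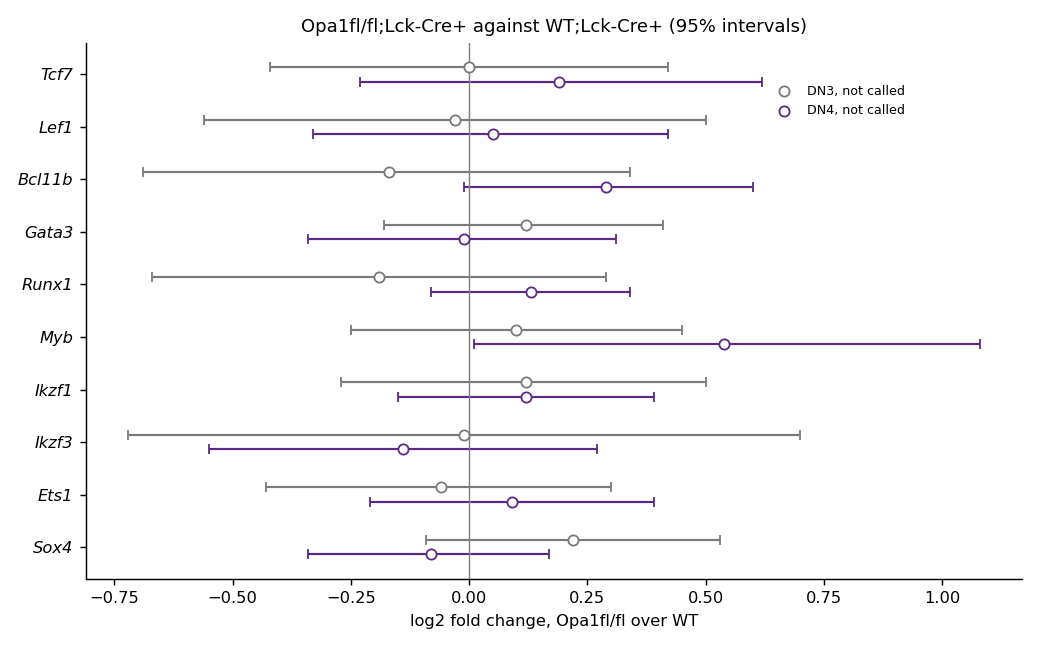
Log2 fold change of Opa1fl/fl;Lck-Cre+ over WT;Lck-Cre+ for each factor with 95% intervals, in DN3 (grey) and DN4 (purple). None passed an adjusted p of 0.05, and the interval of Myb in DN4 (0.01 to 1.08) is the one that leaves out 0.

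The stage difference itself did not differ detectably between the genotypes. In the interaction fit over all 13 libraries 0 of 10 members passed, as did 0% of all genes (480 with an unadjusted p under 0.05). The interaction of Sox4 was -0.35 (95% interval -0.69 to -0.00, unadjusted p = 0.0486, adjusted p = 1, edgeR), that of Bcl11b 0.42 (-0.14 to 0.98) and that of Myb 0.40 (-0.21 to 1.01). Without the DN3 library of WT05 that of Bcl11b was 0.15, and without the DN4 library of KO45 that of Myb was 0.12. Calls that passed in 1 genotype only, of Ikzf1, Myb and Bcl11b, were therefore not shown to differ between genotypes. DESeq2 and limma-voom also called 0 members in the genotype and interaction comparisons.

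Family members of the 10 factors are given by a fixed list of 24 genes, of which 22 were tested by stage. In WT cells 7 passed (3 higher, 4 lower, median log2 0.16), and in Opa1fl/fl cells 8 passed (3 higher, 5 lower, median 0.20). For this and the next 3 lists, the shares of all genes that passed are those given above, 22.9% in WT and 18.6% in Opa1fl/fl cells, and the medians of all genes -0.03 and -0.02. Erg, an ETS factor of early progenitors, fell from 24.4 ± 2.9 CPM in WT DN3 (SD, n = 3) to 0.655 ± 0.498 CPM in WT DN4 (SD, n = 4), and from 26.6 ± 8.05 to 0.396 ± 0.188 CPM in Opa1fl/fl cells (SD, n = 3 each), with 2 to 14 reads left in a DN4 library. Its log2 differences were -5.23 (SE 0.418, adjusted p = 1.4e-04) and -6.01 (SE 0.403, adjusted p = 3.8e-04; edgeR). Runx2, a paralogue of Runx1, fell in Opa1fl/fl cells (log2 -1.39, SE 0.231, adjusted p = 0.00577, edgeR) and read 12.2 to 19 CPM in DN3 and 5.17 to 8.52 CPM in DN4 over both genotypes. Sox5 rose in WT and Opa1fl/fl cells (log2 2.77 and 2.87), from 4 to 14 reads in a DN3 library to 62 to 209 in a DN4 library. Sox13, a factor of γδ T cells, rose in WT cells (log2 1.59, SE 0.371, adjusted p = 0.0164, edgeR) from 71 ± 8.24 to 219 ± 115 CPM, beside a summed level of 4 γδ T-cell genes, Sox13 among them, of 433 to 522 CPM in WT DN3 and 679 to 1693 CPM in WT DN4, and the part of γδ cells was not tested.

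Of 21 partner proteins on a fixed list (the RUNX partner Cbfb, β-catenin, Groucho-type corepressors, and subunits of the Ikaros-associated NuRD complex), 20 were found and tested by stage. In WT cells 5 of the 20 passed (2 higher, 3 lower, median log2 -0.06, beside 22.9% of all genes) and in Opa1fl/fl cells 3 (1 higher, 2 lower, median -0.02, beside 18.6%), shares near those of all genes. Mta3, a NuRD subunit, fell in both (log2 -0.59, SE 0.147, adjusted p = 0.0219 in WT and -0.77, SE 0.158, adjusted p = 0.0129 in Opa1fl/fl cells; edgeR). Among the Groucho-type genes, Tle4 rose in WT cells (log2 0.71, adjusted p = 0.0257), and in Opa1fl/fl cells Tle2 rose (3.01, adjusted p = 0.00366) and Tle3 fell (-0.46, adjusted p = 0.035; edgeR). Tle2 had few reads, 6 to 20 in Opa1fl/fl DN3 libraries and 77 to 184 in Opa1fl/fl DN4 libraries. In WT it had 3 to 30 reads in DN3 and 39 to 87 in DN4. Zfpm1, the GATA cofactor FOG1, rose in WT cells (log2 0.48, adjusted p = 0.0452, edgeR).

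Among 14 other T-lineage factors, all tested by stage, 7 passed in WT (5 higher, 2 lower, median log2 0.50, beside 22.9% of all genes) and 8 in Opa1fl/fl cells (7 higher, 1 lower, median 0.71, beside 18.6%). Hes1, a target of Notch, fell from 51.2 ± 21.5 to 7.63 ± 3.35 CPM in WT (log2 -2.79, SE 0.381, adjusted p = 0.00159) and from 64 ± 10.6 to 6.92 ± 2.68 CPM in Opa1fl/fl cells (-3.23, SE 0.301, adjusted p = 5.8e-04; edgeR). Klf2, a factor of lymphocyte migration and quiescence that B cells also express, rose from 3.74 ± 0.79 to 121 ± 54 CPM in WT and from 5.24 ± 1.46 to 83.3 ± 29 CPM in Opa1fl/fl cells. Zbtb7b, the CD4-lineage factor ThPOK, had 0 or 1 reads in the WT DN3 libraries and 2 to 9 in the Opa1fl/fl DN3 libraries, against 58 to 412 in the DN4 libraries, and passed in both genotypes (adjusted p = 0.00264 and 0.00168, edgeR).

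Of 21 genes known as targets of these factors, 13 passed by stage in WT (8 higher, 5 lower, median log2 0.09, beside 22.9% of all genes) and 15 in Opa1fl/fl cells (9 higher, 6 lower, median 0.50, beside 18.6%). Cd8a rose from 19.5 ± 7.09 to 405 ± 304 CPM in WT (log2 4.36, SE 0.781, adjusted p = 0.00537) and from 30.4 ± 7 to 631 ± 438 CPM in Opa1fl/fl cells (4.35, SE 0.485, adjusted p = 0.00121; edgeR). Cd4, which Runx1 silences, rose from 7.53 ± 2.35 to 291 ± 331 CPM in Opa1fl/fl cells (log2 5.22, SE 0.9, adjusted p = 0.00662, edgeR), and both genes belong to the ISP and DP markers above. In WT cells Cd4 read 5.19 ± 1.43 CPM in DN3 and 89.7 ± 107 CPM in DN4. A link between the levels of Cd4 and Runx1 was not tested. Il2rb, the β chain of the IL-2 and IL-15 receptors, rose from 2.13 ± 0.248 to 183 ± 49.4 CPM in WT (log2 6.42, SE 0.28, adjusted p = 1.6e-05) and from 3.25 ± 3.27 to 111 ± 16.9 CPM in Opa1fl/fl cells (4.96, SE 0.537, adjusted p = 0.00108; edgeR). Zbtb16, the factor PLZF of innate-like T cells, had 0 to 3 reads in WT DN3 libraries and 40 to 143 in WT DN4 libraries (adjusted p = 0.00211, edgeR). Between genotypes 0 genes of these 4 lists passed in either stage or in the interaction (edgeR), and 0 to 4 genes of a list had an unadjusted p under 0.05.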

How the data were processed

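The authors sequenced stranded mRNA libraries and deposited a table of read counts per gene, made with Cutadapt, STAR and featureCounts on mm10 per the labels; annotation and strand setting of the counting are not given in the sources used here. Columns were joined to mouse, stage and genotype by their names, and 0 columns were unused. The main test was edgeR's quasi-likelihood fit (version 4.0.16, R 4.3.3) on the libraries of the 2 groups compared (filterByExpr minimum count 10, TMM scaling, Benjamini-Hochberg over all genes, adjusted p under 0.05), and the interaction on all 13 libraries. The authors' methods name DESeq2 on raw counts; DESeq2 1.42.0 and limma 3.58.1 were alternatives. CPM used one TMM scaling over 13 libraries. Libraries of 1 mouse share its number: deviations from the group means correlated with r of 0.138 to 0.393 in all 6 mice, so the numbers pair. Exon lengths come from GENCODE M21 (GRCm38), where 47310 of 47937 identifiers were found without version, and promoter sequences from RefSeq. Intervals and SE cover the spread between libraries; counts are not molecules. The steps were tested on simulated data.

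The members and lists were chosen with earlier results of these data known. Members are always named; from each other list, the 3 with the largest absolute fold change among those that passed are named per comparison (some genes of the marker and factor lists are not reported here and were left out of counts and sums), and the 3 genes most like Tcf7 and Lef1.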

Additional observations from a re-analysis of the deposited data

Results flagged for a closer look

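Gata3 in the DN4 library of WT48 read 136 CPM, and the other 3 WT DN4 libraries read 101 to 102 CPM. The gap was 0.993 of the range of the group, above Dixon's critical value for 4 samples. Groups of 4 were tested for the 10 members, and chance alone puts about 1 in 20 such groups above the critical value. Of the 13 libraries the same one had the highest summed level of B-cell genes (5763 CPM), γδ T-cell genes (1693 CPM), NK and innate lymphoid genes (406 CPM), plasmacytoid dendritic-cell genes (983 CPM) and stromal genes (246 CPM). Among DN4 libraries it had the lowest sum of ISP and DP genes (378 CPM), and their part in the Gata3 level was not tested.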

How the results depend on the processing

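Of 1010 alternative values of single members, 891 kept their direction and side of the threshold, 39 lost a call, 15 gained one, 2 that were called changed sign, and 63 changed sign without a call in either setting. By stage in WT cells 5 members passed, against 2 with library totals for scaling, 3 with a log2 difference of at least 1, and 3 to 6 with 1 library left out (3 without the DN4 library of WT05). Over all genes 2903 of 12691 passed, against 1782 and 1724 of 12691 in the first 2 settings. With 1 library left out 1845 to 3393 genes passed, of 12465 to 13213 tested. By stage in Opa1fl/fl cells 4 members passed, against 2 with a log2 difference of at least 1, 7 with the mouse as replicate block, and 2 to 5 with 1 library left out (2 without the DN3 library of KO49 or KO51). Over all genes 2338 of 12580 passed, against 1385 and 4499 of 12580 in the first 2 settings. With 1 library left out 1407 to 2790 genes passed, of 12783 to 13195 tested. Library totals moved the median of all genes from -0.03 to 0.16 by stage in WT cells, and to 0.23 between genotypes in DN3 and -0.20 in the interaction. With the paired fit, the replicate block changed no call beyond those given with the stage results.

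Marker covariates were added after seeing the data. With the level of B-cell genes 0 members passed by stage in either genotype, and with that of ISP and DP genes 2 in WT (Ikzf3 3.07, adjusted p = 0.0377, and Myb -1.74, adjusted p = 0.0364) and 0 in Opa1fl/fl cells, where Ikzf1 was -0.16 and Ets1 -0.12. Among values without a call by stage in WT cells, Tcf7 went from 0.10 to -0.96 with the level of ISP and DP genes and 0.73 with that of B-cell genes, Lef1 from 0.20 to -0.96 and 0.95, and Gata3 from 0.04 to 0.71 and -0.33. All genes called by edgeR fell from 2903 to 691 and 1248 in WT, and from 2338 to 0 and 0 in Opa1fl/fl cells (861 and 612 with an unadjusted p under 0.05), and the marker levels took no value common to both stages. In all other settings run, the stage calls of Runx1 and Ikzf3 held in both genotypes.

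The Ikzf3 to Ikzf1 ratio changed by 1.91 to 2.20 with 1 mouse left out, where the smallest exact permutation p is 0.0625, and by 2.04 without the replicate block over all 13 libraries. The Lef1 to Tcf7 ratio changed by 0.04 to 0.12 with 1 mouse left out. At 50 CPM the counting error was 3.72% to 7.65% of the value, highest in the DN3 library of WT05.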
